A study of Mus musculus with 12 samples.

Results

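The genes of phase II conjugation were followed in RNA-seq counts of mouse kidney cortex. Members are the protein-coding genes whose symbol marks a glutathione S-transferase (GST, including the microsomal enzymes), a UDP-glucuronosyltransferase of family 1, 2 or 3 (UGT) or a cytosolic sulfotransferase (SULT). There were 67 members among the 55487 genes of the table, namely 25 GST, 21 UGT and 21 SULT genes. Of these, 43 passed the low-count filter in at least 1 comparison, 14 had no count in any library, and the remaining 10 never exceeded 9 counts in a library.

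Phase II enzymes attach a polar group to drugs, hormones and products of lipid oxidation, which can then be excreted. GSTs add glutathione and several also reduce peroxides, UGTs add a sugar such as glucuronic acid from UDP-glucuronic acid, and SULTs add sulfate from the carrier PAPS. In the kidney these reactions run mainly in the proximal tubule. Many GST genes are textbook targets of the oxidative stress factor NRF2, and several rodent GST, UGT and SULT genes are known to differ between the sexes.

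The study addressed what loss of ALR (augmenter of liver regeneration, gene Gfer) in proximal tubules does to kidneys after ischemia and reperfusion (I/R). There were 4 groups of 3 libraries from mice aged 6 to 8 weeks on a mixed C57BL/6 background, each library here called a kidney. The paper names ALR flox/flox mice as its control but also writes of wild-type mice, and the labels give the control genotype as WT. Whether the sequenced Ctrl mice carried the floxed alleles is therefore not settled here. The genotype label of the injured PT-KO samples names both ALR knockdown and WT, and their group was taken from the sample titles. Sham Ctrl mice had no Cre, and sham PT-KO mice (ALR flox/flox-Ggt1-Cre, labelled ALR knockdown) carried Cre under the Ggt1 promoter, which is active in proximal tubule cells, so other cortical cells keep the gene. Injured Ctrl mice (Ctrl+I/R) and injured PT-KO mice (PT-KO+I/R) had 22 min of bilateral renal ischemia and 24 h of reperfusion. Values of 3 kidneys are given in the order of their labels, as CPM, the counts of a gene scaled to the library total after TMM normalization.

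Library totals ran from 12165089 to 23123693 counts. Gfer was at 12.7, 11.4 and 14.4 CPM in sham Ctrl, 9.97, 17.1 and 15.03 in sham PT-KO, 15.3, 20.0003 and 17.6 in injured Ctrl and 21.6, 22.8 and 21.6 in injured PT-KO kidneys. The targeted gene was thus not lower in the libraries labelled PT-KO, in a count over the whole gene that can include exons outside the floxed part, and genotypes are used here as labelled. Sham Ctrl libraries 1 and 2 contained Xist, the transcript of the inactive X chromosome, with 22402 and 19755 counts and no Y-linked count. The other 10 libraries held at most 11 Xist counts and 3109 to 5251 Y-linked counts. Each comparison with sham Ctrl therefore mixes sex with injury or genotype and is given with and without these libraries. Injured Ctrl library 2 stood apart from the others of its group, with the highest injured tubule markers (Havcr1 at 786, 2107 and 381 CPM in injured Ctrl kidneys) and the lowest Slc34a1 of proximal tubules (2282, 809.5 and 2854 CPM) and Slc12a1 of the thick ascending limb (486, 59.9 and 720.3 CPM). The comparisons of injured PT-KO with sham PT-KO and with injured Ctrl kidneys hold only libraries with Y-linked counts, come first, and share the same 3 injured PT-KO kidneys.

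Of the 59 members with a RefSeq promoter window (250 bases before to 50 after the start site), 4 held the core bound by NRF2, TGACNNNGC, on either strand. Among all 32851 windows 12.4% held it. These sites are shown because the genes that carry them responded in different directions. The core is in capitals with 10 bases on either side, 5′ to 3′ on the strand of the gene (RefSeq, GRCm38.p6).
Mgst1, chr6:138140461-138140489, plus strand: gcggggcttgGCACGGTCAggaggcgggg
Gstm5, chr3:107895802-107895830, plus strand: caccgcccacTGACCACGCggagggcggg
Gstm7, chr3:107931725-107931753, minus strand: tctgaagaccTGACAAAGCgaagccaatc
Gsta3, chr1:21240454-21240482, plus strand: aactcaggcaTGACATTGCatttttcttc
The core lies on the opposite strand in Mgst1, 56 bases before the start site, and on the gene's strand in Gstm5 (42 bases before), Gstm7 (129) and Gsta3 (121). With I/R in PT-KO mice, Mgst1 and Gstm5 rose, Gstm7 fell and Gsta3 did not pass the test, as the values below show. The dioxin response core GCGTG occurred in the windows of 12 members and in 32.4% of all windows. No member window held the strict form of an HNF1 palindrome or a PPAR direct repeat (both strands searched), which occurred in 0.00913% and 0.0396% of all windows.

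In sham PT-KO kidneys Ugt2b38, a family 2 glucuronosyltransferase, had the most reads per length, at 686 ± 189 CPM per kb of exon (SD, n = 3). Ugt3a2, of a family that uses sugars other than glucuronic acid, had 620.5 ± 52.7 CPM per kb, within the spread of Ugt2b38. Sult1d1, a sulfotransferase of the kidney, followed at 362 ± 17.8 and Gstm1, a mu class GST, at 196 ± 26.001 CPM per kb. In injured PT-KO kidneys the order by CPM per kb began with Sult1d1, Gstm5 and Ugt3a2, and Ugt2b38 was number 7. Summed CPM of the UGT genes ranged from 3611 to 4789.5 in sham PT-KO and from 1489 to 1619 in injured PT-KO kidneys. The SULT sum ranged from 957 to 1042 and from 1441 to 1540.4, and the GST sum from 1440.3 to 1662 and from 2090.4 to 2212. None of these ranges overlapped between sham and injured PT-KO kidneys. Such sums follow the most abundant genes: Sult1d1 alone made up a mean of 890.0 of 998 CPM of the SULT sum in sham and 1403 of 1478 in injured PT-KO kidneys. In bulk tissue, fewer cells of a type and less RNA per cell cannot be told apart.

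With I/R in PT-KO mice, 32 of 41 members tested passed (edgeR quasi-likelihood F test, adjusted p under 0.05 over all genes), 13 higher and 19 lower. The same test called 65.5% of all genes, 32.9% higher and 32.7% lower. Here and below, all genes are those tested in the same fit, 15155 in this one, and not the whole table. The median log2 fold change was -0.12 for the members and 0.011 for all genes. By family, 9 GST genes rose and 8 fell of 21 tested, 3 SULT genes rose and 3 fell of 7, and 1 UGT gene rose and 8 fell of 13.

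Between the injured groups, 23 of 41 members passed, 11 higher and 12 lower in PT-KO, where 46.9% of all genes were called, 22.5% higher and 24.4% lower. Leaving out 1 library gave 16 to 26 members, with the fewest without injured PT-KO library 3 (34.3% of all genes) and the most without injured Ctrl library 2 (48% of all genes). Without that library, which stood apart, all 23 members stayed called, Gstm2, Gstt3 and Gstz1 passed as well, and the log2 fold change of Gsta1 was 3.91 ± 0.56. With all 6 libraries, 6 GST genes were higher and 4 lower, 3 SULT genes were higher and 1 lower, and 2 UGT genes were higher and 7 lower. The median log2 fold change was -0.17 for the members and -0.0049 for all genes. Scaling to total counts moved the latter to -0.21, with 1978 genes called higher and 5080 lower instead of 3444 and 3725, and reversed no member named here.

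**Figure D1:**
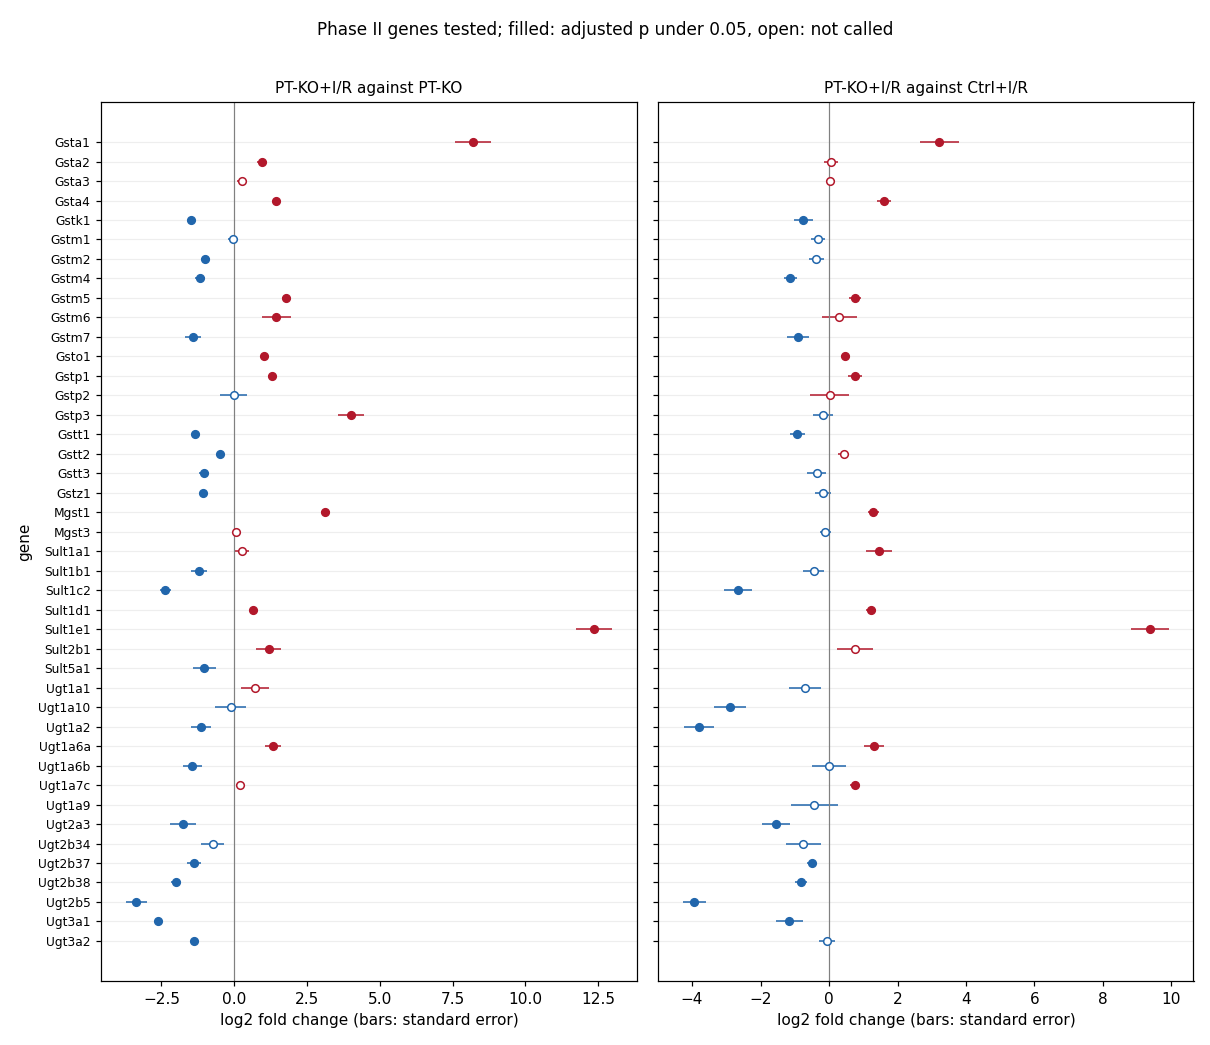
Log2 fold change of each tested member (rows) in injured against sham PT-KO and in injured PT-KO against injured Ctrl kidneys, with standard errors as bars and filled points for members that passed the test (32 and 23 of 41). The points of Sult1e1 (12.37 and 9.37) depend on the prior count, since its low groups held 0 to 3 counts per library.

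Of the GST genes, Mgst1 and Gstm5 were higher in injured than in sham PT-KO kidneys and also higher than in injured Ctrl kidneys. Mgst1, a microsomal GST that reduces lipid peroxides, was at 33.9, 39.04 and 50.2 CPM in sham PT-KO, 143, 175 and 120.4 in injured Ctrl and 353, 396 and 331 in injured PT-KO kidneys. These 3 groups did not overlap. The log2 fold change was 3.13 ± 0.15 (SE) against sham PT-KO (adjusted p = 1.19e-07) and 1.30 ± 0.15 against injured Ctrl (adjusted p = 0.000623). Gstm5, a mu class GST, was at 95.3, 103 and 104 CPM, 178, 237 and 194 and 420.4, 299 and 315 in the same groups, again without overlap. It differed by 1.77 ± 0.13 and 0.76 ± 0.17 on the log2 scale (adjusted p = 1.80e-06 and 0.00734). An annotated RNA, 4933431E20Rik, overlaps 13.9% of the Gstm5 exon bases.

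Gstp1, the main pi class GST, reached 153, 189 and 201 CPM in injured PT-KO kidneys, above the 106, 135 and 77.98 CPM of injured Ctrl and the 59.6, 76.1 and 83.1 CPM of sham PT-KO kidneys. The difference from injured Ctrl was 0.76 ± 0.20 (adjusted p = 0.0153). This call was lost without injured Ctrl library 1 or injured PT-KO library 3 or 4 (log2 fold change 0.58 to 0.96) and with total-count scaling. Of its 100-base windows 25.1% also occur in another gene, chiefly Gstp2, so reads of the pair may be shared. Gsto1, an omega class GST that reduces dehydroascorbate, was at 73.4 to 83.2 CPM against 51.6 to 60.9 in injured Ctrl kidneys. Its difference of 0.45 ± 0.11 was the smallest of the called rises and was lost with total-count scaling (adjusted p = 0.0816).

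The alpha class GSTs ranged from no call to the widest GST rise. Gsta4, known for conjugating the lipid peroxidation product 4-hydroxynonenal, was at 23.8, 22.5 and 23.7 CPM in sham PT-KO, 28.1, 17.8 and 17.3 in injured Ctrl and 65.5, 55.96 and 70.9 in injured PT-KO kidneys. All injured PT-KO kidneys lay above those of both other groups, by 1.45 ± 0.11 and 1.59 ± 0.20 on the log2 scale (adjusted p = 1.78e-06 and 0.000858). Gsta1 had 3, 1 and 2 counts in sham PT-KO, 76, 137 and 21 in injured Ctrl and 380, 449 and 927 in injured PT-KO kidneys. Its ratio to sham PT-KO was 299 (95% exact counting interval 137 to 816), an interval that covers counting error only. Against injured Ctrl its log2 fold change was 3.22 ± 0.58 (adjusted p = 0.00329). However, 80.6% of its 100-base windows also occur elsewhere, chiefly in Gm3776, which was at 4.71, 2.85 and 9.99 CPM in injured PT-KO kidneys and at most 0.783 in sham PT-KO and injured Ctrl. How the counts divide between the pair is uncertain.

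Gsta2 was at 136, 109 and 132 CPM in sham PT-KO and 257, 173 and 304 in injured PT-KO kidneys (log2 fold change 0.95 ± 0.18, adjusted p = 0.00121). It shares 28.4% of its 100-base windows with other genes, chiefly Gsta1, so some reads may belong to either. It overlapped with injured Ctrl at 215, 231 and 252 CPM and did not pass there (adjusted p = 0.809). Gsta3, the gene with an NRF2 core shown above, was at 83.9 to 100.5 CPM in injured PT-KO, 82.8 to 98.4 in injured Ctrl and 55.3 to 94.2 in sham PT-KO kidneys and passed in neither comparison. Gsta1 and Gsta2 lie on chromosome 9 (mm10), at 78230656 to 78242684 and 78331018 to 78355788. In the 250 bases before their RefSeq start sites, 77.0% of 239 aligned bases were identical. The last 150 of these bases are shown because the levels of the genes are far apart, with capitals at Gsta2 bases that differ from, or have no partner in, Gsta1.
Gsta1, chr9:78230519-78230668, plus strand: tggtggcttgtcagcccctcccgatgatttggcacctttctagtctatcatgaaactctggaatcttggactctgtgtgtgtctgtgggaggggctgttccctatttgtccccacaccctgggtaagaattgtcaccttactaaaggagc
Gsta2, chr9:78347146-78347295, minus strand: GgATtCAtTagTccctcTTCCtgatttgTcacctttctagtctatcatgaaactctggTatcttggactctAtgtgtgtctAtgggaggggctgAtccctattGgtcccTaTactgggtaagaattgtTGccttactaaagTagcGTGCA

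Another set of GST genes fell. Gstt1, a theta class enzyme that handles small halogenated compounds, was at 69.5, 80.9 and 82.2 CPM in sham PT-KO, 78.1, 40.5 and 53.4 in injured Ctrl and 32.9, 28.7 and 30.05 in injured PT-KO kidneys. The last group lay below both others, by -1.36 ± 0.097 and -0.92 ± 0.23 on the log2 scale (adjusted p = 1.47e-06 and 0.012), and the second call was lost without injured PT-KO library 3 (range -1.13 to -0.64). Gstm4, of the mu class, was at 11.4, 12.98 and 12.9 CPM, 10.9, 14.8 and 10.7 and 5.48, 4.90 and 6.25 in these groups. Its injured PT-KO values were again the lowest, by -1.17 ± 0.16 and -1.14 ± 0.19.

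Gstk1, the kappa class GST of mitochondria and peroxisomes, fell from 39.9 to 50.6 CPM in sham to 14.5 to 18.6 in injured PT-KO kidneys (log2 fold change -1.47 ± 0.13). Gstm7 fell from 3.93 to 6.26 to 1.45 to 2.05 CPM (-1.41 ± 0.27). Against injured Ctrl these genes differed by -0.75 ± 0.27 and -0.91 ± 0.32 (adjusted p = 0.0493 and 0.0469). Each of these calls was lost without any 1 library except injured Ctrl library 2 (ranges -1.02 to -0.53 and -1.15 to -0.73). That of Gstm7 was lost by DESeq2 and without a low-count filter as well (adjusted p = 0.0709 and 0.0526). Gstz1, which also takes part in tyrosine breakdown, Gstt2, Gstt3 and Gstm2 fell with injury in PT-KO mice, by log2 fold changes of -1.07, -0.48, -1.04 and -0.999, and did not pass between the injured groups. Gstt2 did pass there as higher in PT-KO with sex as a covariate and without the Xist libraries (0.44 ± 0.14 and 0.42 ± 0.15). Other annotated genes overlap 12.2% of the exon bases of Gstz1 and 13.6% of those of Gstt3.

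Gstp3, of the pi class, rose with injury in both genotypes. It had 0, 2 and 0 counts in sham Ctrl and 1, 5 and 4 in sham PT-KO, but 104, 72 and 40 in injured Ctrl and 49, 65 and 44 in injured PT-KO kidneys. The injured groups overlapped and did not pass the test (-0.17 ± 0.30, adjusted p = 0.671), whereas injured against sham PT-KO gave 4.01 ± 0.44 (adjusted p = 2.86e-05). Gstp3 entered the latter fit only through the injured kidneys, so the counts are the result and the call adds little. Gstm1 was at 253 to 329 CPM in sham PT-KO, 300.3 to 424 in injured Ctrl and 206 to 337 in injured PT-KO kidneys and passed in neither comparison, like Mgst3 and Gstp2. Gstm6, at 0.757 to 2.99 CPM in injured PT-KO kidneys, passed against sham PT-KO (1.45 ± 0.51), but only 1 of 6 fits without a library, that without injured PT-KO library 3, kept the call (range 1.17 to 1.91). Gsto2 was below the low-count filter of the 6-library comparison, with 13, 19 and 7 counts in sham and 0, 3 and 1 in injured PT-KO kidneys, a ratio of 9.55 (95% exact counting interval 3.44 to 36.8). In the 12-library fit with sex as a covariate and in that without the Xist libraries it was tested and passed as lower, with log2 fold changes of -3.17 ± 0.62 and -3.22 ± 0.74 (adjusted p = 0.000913 and 0.00373).

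**Figure D2:**
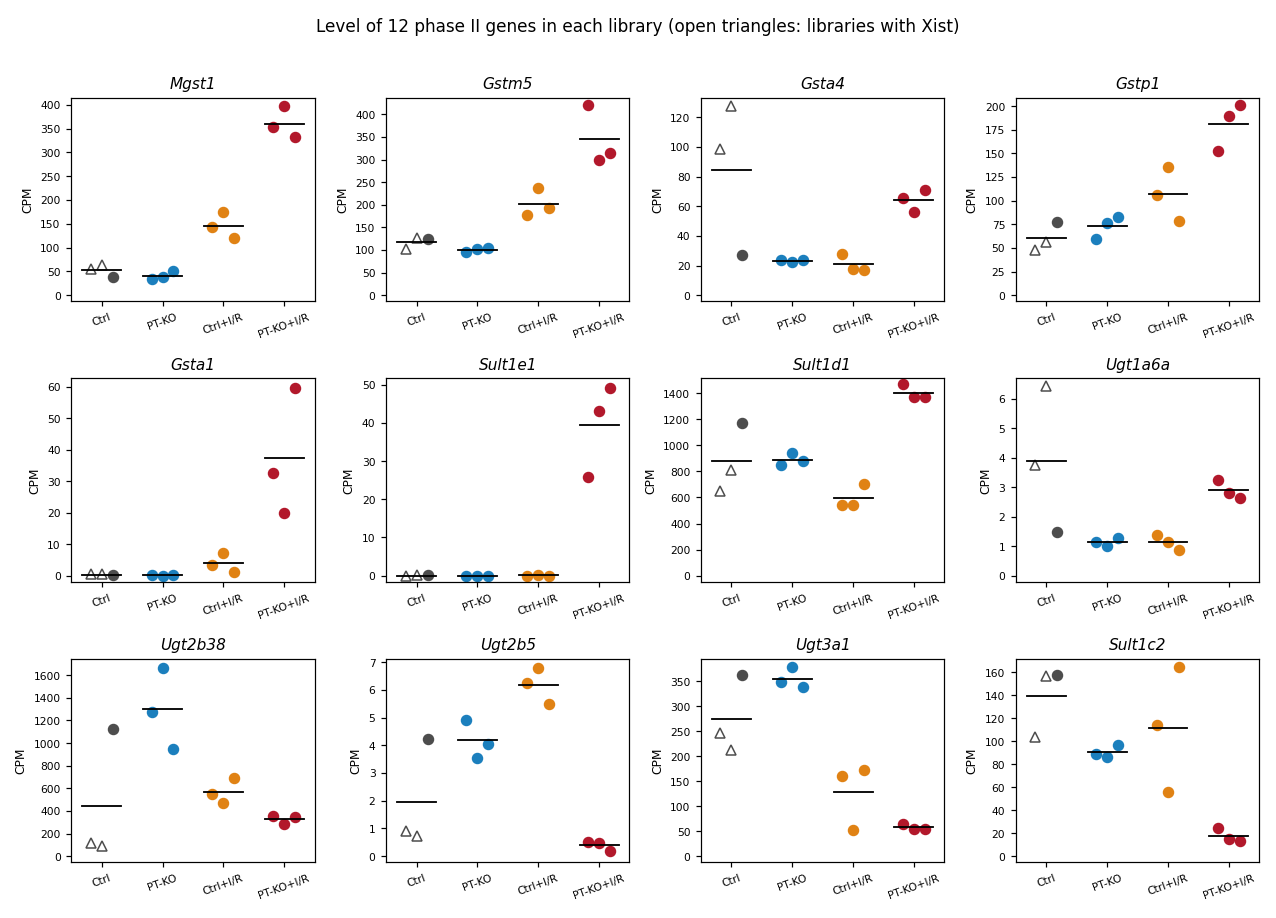
CPM of 12 members in each library on linear axes, with 1 point per kidney and a bar at the mean of each group of 3; open triangles are the sham Ctrl libraries that contain Xist. Apart from those 2 libraries, Mgst1, Gstm5, Gsta4, Gstp1, Gsta1, Sult1e1, Sult1d1 and Ugt1a6a are highest in the 3 injured PT-KO kidneys and Ugt2b38, Ugt2b5 and Sult1c2 lowest.

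Of the tested family 2 UGT genes, Ugt2b38, Ugt2b5, Ugt2b37 and Ugt2a3 fell and Ugt2b34 did not pass in either comparison. Ugt2b38 was at 1272, 1666 and 951 CPM in sham PT-KO, 548, 469 and 695 in injured Ctrl and 352, 283 and 342 in injured PT-KO kidneys. The groups did not overlap, and the log2 fold change was -1.999 ± 0.19 against sham PT-KO (adjusted p = 8.47e-06) and -0.82 ± 0.18 against injured Ctrl (adjusted p = 0.00695). The scarcer Ugt2b5 was at 4.92, 3.55 and 4.05 CPM in sham PT-KO, 6.25, 6.79 and 5.50 in injured Ctrl and 0.513, 0.490 and 0.193 in injured PT-KO kidneys. Here injured Ctrl kidneys lay above sham PT-KO ones, and the differences of injured PT-KO were -3.36 ± 0.36 and -3.93 ± 0.34 (adjusted p = 2.50e-05 and 0.000244). Of their 100-base windows, 24.2% in Ugt2b38 and 24.7% in Ugt2b5 occur in another gene, chiefly each other.

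Ugt2b37 went from 282, 304 and 143 CPM in sham to 92.2, 86.8 and 103 in injured PT-KO kidneys (log2 fold change -1.38 ± 0.23, adjusted p = 0.0005). Injured Ctrl kidneys, at 151, 115 and 129 CPM, lay above the latter without overlap (-0.50 ± 0.13, adjusted p = 0.0167), a call lost without injured PT-KO library 2 or 3 (range -0.60 to -0.40). Ugt2a3, at 0.356 to 0.685 CPM in injured PT-KO kidneys, was lower in both comparisons (-1.76 ± 0.45 and -1.55 ± 0.42). The second of these was lost without injured Ctrl library 4 or injured PT-KO library 3 or 4 (range -1.79 to -1.32). A single fit to all 12 libraries ended the call of Ugt2b38 between the injured groups (adjusted p = 0.359) and both calls of Ugt2b37 (adjusted p = 0.317 against sham PT-KO and 0.743 against injured Ctrl). The second call of Ugt2b37 was also lost in that fit with sex as a covariate and without the Xist libraries (adjusted p = 0.0857 and 0.103).

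The 3 UGT2B genes lie in a cluster on chromosome 5, with Ugt2b5 at 87124960 to 87140318, Ugt2b37 at 87240493 to 87254804 and Ugt2b38 at 87409942 to 87424203. Before their RefSeq start sites, 94.9% of 236 aligned bases were identical between Ugt2b37 and Ugt2b38, and 88.3% of 240 between Ugt2b5 and Ugt2b38. The last 150 bases are shown because closely alike sequences precede genes of different level, with capitals at Ugt2b37 and Ugt2b5 bases that differ from, or have no partner in, Ugt2b38.
Ugt2b38, chr5:87424204-87424353, minus strand: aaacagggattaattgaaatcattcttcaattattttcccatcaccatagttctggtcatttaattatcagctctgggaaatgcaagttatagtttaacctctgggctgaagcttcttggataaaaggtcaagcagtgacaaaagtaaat
Ugt2b37, chr5:87254789-87254938, minus strand: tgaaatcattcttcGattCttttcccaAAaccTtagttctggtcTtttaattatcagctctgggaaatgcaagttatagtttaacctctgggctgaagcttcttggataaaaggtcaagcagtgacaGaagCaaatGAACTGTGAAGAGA
Ugt2b5, chr5:87140341-87140490, minus strand: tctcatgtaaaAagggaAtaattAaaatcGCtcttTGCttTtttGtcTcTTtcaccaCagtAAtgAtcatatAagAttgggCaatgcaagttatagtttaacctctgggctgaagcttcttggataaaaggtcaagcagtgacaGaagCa

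Both family 3 genes fell with injury in PT-KO mice. Ugt3a1 was at 348, 379 and 338 CPM in sham PT-KO, 160.2, 51.9 and 173 in injured Ctrl and 64.2, 55.2 and 54.8 in injured PT-KO kidneys (log2 fold change -2.62 ± 0.099 against sham PT-KO, adjusted p = 4.42e-08). Injured Ctrl library 2 lay below all injured PT-KO kidneys, so the injured groups overlapped. Their difference of -1.16 ± 0.39 (adjusted p = 0.0407) was lost by DESeq2 and without any 1 library except that one (range -1.54 to -0.88). Ugt3a2 was at 1809, 2112 and 1854 CPM in sham and 698, 743 and 779 in injured PT-KO kidneys (-1.39 ± 0.10, adjusted p = 1.64e-06). In injured Ctrl it was at 903, 492 and 899.9 CPM and did not pass (adjusted p = 0.855).

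The UGT1 genes join first exons of their own to common last exons, and 50.3% to 82.7% of their exon bases belong to more than 1 gene, so counts may be shared among them. Ugt1a6a, whose enzyme conjugates small phenols, was at 1.14, 1.02 and 1.29 CPM in sham PT-KO, 1.38, 1.15 and 0.885 in injured Ctrl and 3.25, 2.80 and 2.64 in injured PT-KO kidneys. It was the one UGT gene called higher in both comparisons, by 1.32 ± 0.27 and 1.32 ± 0.29 on the log2 scale (adjusted p = 0.00185 and 0.0075). Ugt1a7c was at 262, 300.2 and 274 CPM in injured PT-KO against 182, 141 and 171 in injured Ctrl kidneys, without overlap (0.75 ± 0.13, adjusted p = 0.00306). Sham PT-KO kidneys, at 203, 264 and 263 CPM, overlapped with injured PT-KO ones.

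Other UGT1 genes were lower. Ugt1a10 was at 1.63, 1.69 and 1.16 CPM in injured PT-KO and 10.1, 5.07 and 18.03 in injured Ctrl kidneys (-2.89 ± 0.47, adjusted p = 0.00227), and did not pass against sham PT-KO at 2.65, 0.431 and 1.84 CPM. Ugt1a2 was at 0.513, 0.623 and 0.580 CPM in injured PT-KO, 7.15, 4.65 and 12.6 in injured Ctrl and 1.45, 1.13 and 1.23 in sham PT-KO kidneys (-3.80 ± 0.44 and -1.13 ± 0.34). Its call against sham PT-KO was lost without sham PT-KO library 1 (range -1.21 to -1.03), by DESeq2 and without a low-count filter (adjusted p = 0.117 and 0.0681), and with sex as a covariate. Both calls were lost in 1 fit to all 12 libraries. Ugt1a6b passed in injured against sham PT-KO kidneys (-1.44 ± 0.34) and not between the injured groups.

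Sult1e1, the estrogen sulfotransferase, had the widest contrast of all members. It had 302, 969 and 763 counts in injured PT-KO kidneys, or 25.8, 43.1 and 49.2 CPM. In the other groups it had 0, 3 and 0 counts (injured Ctrl), 0, 0 and 0 (sham PT-KO) and 0, 1 and 1 (sham Ctrl). Its level was at least 692-fold higher than in sham PT-KO, with a floor of 3 counts over that group, and its ratio to injured Ctrl was 783 (95% exact counting interval 268 to 3800.2). Both differences passed the edgeR test (adjusted p = 1.06e-06 and 8.24e-05). The gene passed the low-count filter only through the injured PT-KO kidneys, so these calls add nothing to the counts above. Sult1e1 lies on chromosome 5 at 87575969 to 87591594, and the 150 bases before its RefSeq start site are shown because no other member was so nearly confined to 1 group of these 12 libraries.
Sult1e1, chr5:87591612-87591761, minus strand: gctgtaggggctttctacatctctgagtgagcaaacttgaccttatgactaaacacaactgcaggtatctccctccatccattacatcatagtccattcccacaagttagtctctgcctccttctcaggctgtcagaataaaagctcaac

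Sult1d1, the neighbour of Sult1e1 at 87554645 to 87569027, was abundant in every group. It was at 852, 938 and 881 CPM in sham PT-KO, 544, 539 and 706 in injured Ctrl and 1467, 1369.5 and 1372 in injured PT-KO kidneys, and the groups did not overlap. Injured PT-KO kidneys were higher by 0.65 ± 0.089 (adjusted p = 0.000125) and 1.23 ± 0.15 (adjusted p = 0.000742) on the log2 scale. Before the start sites of Sult1d1 and Sult1e1, 59.3% of 209 aligned bases were identical. Sult1a1, a phenol sulfotransferase, was at 17.9, 8.55 and 12.1 CPM in injured PT-KO, 4.73, 2.51 and 6.58 in injured Ctrl and 10.5, 9.59 and 11.2 in sham PT-KO kidneys. It passed against injured Ctrl alone (1.46 ± 0.38, adjusted p = 0.0159), and not without injured PT-KO library 2 (range 1.16 to 1.79).

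Sult1c2 went the other way, at 88.5, 86.6 and 96.9 CPM in sham PT-KO, 114, 55.7 and 164 in injured Ctrl and 24.9, 15.2 and 13.6 in injured PT-KO kidneys. The last group lay below both others, by -2.37 ± 0.19 and -2.66 ± 0.40 on the log2 scale (adjusted p = 2.99e-06 and 0.00168). Sult1b1 fell in injured against sham PT-KO kidneys (-1.21 ± 0.28). Sult2b1, a cholesterol sulfotransferase, was at 1.28 to 1.83 CPM against 0.323 to 0.859 (1.18 ± 0.41), a call lost without sham PT-KO library 2 or injured PT-KO library 3 or 4 (range 0.83 to 1.40), by DESeq2, without a low-count filter and in each fit to 10 or 12 libraries (adjusted p from 0.0511 to 0.113). Sult5a1 was at 0.257 to 0.580 against 0.947 to 1.10 CPM (-1.03 ± 0.40), a call lost without any 1 of the 6 libraries (range -1.20 to -0.79), by DESeq2, with total-count scaling, without a low-count filter and without the Xist libraries.

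Cell type markers moved beside these genes. For comparison, injury in PT-KO mice gave 32.9% of all genes higher and 32.7% lower. Between the injured groups the shares were 22.5% higher and 24.4% lower in PT-KO. Counts of markers near these shares are not read as changes of a cell type. All 12 proximal tubule markers fell in injured against sham PT-KO kidneys, with a median log2 fold change of -2.34. Between the injured groups 5 of 12 were lower in PT-KO (Aqp1, Slc34a1, Cubn, Lrp2 and Slc5a12) and 1 (Kap) was higher, and the median log2 fold change of the 12 was -0.92. Their summed CPM ranged from 39915 to 50798 in sham PT-KO, 14217 to 23398 in injured Ctrl and 19782 to 21025 in injured PT-KO kidneys, and none was at 0 in all libraries. Kap alone gave 14016, 15147 and 15703 CPM of the sum in injured PT-KO and 10204, 8465 and 11318 in injured Ctrl kidneys. The 3 injured tubule markers (Lcn2, Krt20 and Havcr1) were higher in both comparisons, with sums of 1.94 to 4.10, 552 to 2617 and 4799.7 to 6312 CPM in these groups. The 6 immune markers summed to 98.3 to 183 CPM in injured Ctrl and 67.7 to 94.7 in injured PT-KO kidneys, but 3 of them (Cd68, S100a8 and S100a9) were higher in PT-KO and 3 (Adgre1, Ptprc and Lyz2) lower. Between the injured groups 2 of 3 fibroblast markers (median log2 fold change -2.14), 2 of 3 thick ascending limb markers (-1.08) and 3 of 4 red cell markers (-1.38) were lower in PT-KO, and 3 of 4 endothelial markers (0.44) higher. Their summed CPM ranged from 373 to 531, 1371 to 3610.4, 77.8 to 204 and 242 to 269 in injured Ctrl and from 89.2 to 146, 1911 to 2353, 40.5 to 47.1 and 337 to 341 in injured PT-KO kidneys. In the lists for distal convoluted tubule, principal cells, intercalated cells, podocytes and liver at most 2 markers passed between the injured groups. With injury in PT-KO mice the markers that passed were 3 lower of 3 for thick ascending limb, 1 higher and 2 lower of 3 for distal convoluted tubule, 3 lower of 3 for principal cells, 3 lower of 4 for intercalated cells, 1 lower of 3 for podocytes, 3 higher of 4 for endothelium, 3 higher and 3 lower of 6 for immune cells, 2 higher of 3 for fibroblasts, 1 lower of 4 for red cells and 1 higher and 2 lower of 4 for liver. The part of these shifts in the results for the phase II genes was not tested.

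Genes that supply, regulate or follow the 3 reactions were read from a list of 73 genes, of which 72 were in the table and 69 were tested. Between the injured groups 45 passed, 22 higher and 23 lower in PT-KO, where 46.9% of all genes were called. With injury in PT-KO mice 58 passed, 26 higher and 32 lower, where 65.5% of all genes were called. Between the injured groups 22.5% of all genes were higher and 24.4% lower in PT-KO, the baseline for each list of related genes. Of 12 NRF2 targets outside the 3 families, 8 were higher in injured PT-KO than in injured Ctrl kidneys and 1 (Me1) was lower, against 22.5% and 24.4% of all genes. Srxn1, which repairs oxidized peroxiredoxins, was at 663, 721 and 843 against 99.6, 164 and 99.5 CPM (log2 fold change 2.61 ± 0.22). Slc7a11, which imports cystine for glutathione synthesis, was at 3.94, 21.9 and 12.8 against 1.34, 2.25 and 0.696 CPM (3.17 ± 0.63). Gsr, which regenerates glutathione, Nqo1, Txnrd1, Cbr3 and G6pdx were higher by 1.60, 1.37, 1.53, 1.74 and 1.14. Hmox1 passed at 1.59 ± 0.47, but not without injured Ctrl library 1 or injured PT-KO library 3 (range 1.16 to 1.91). In the glutathione list, 3 of 9 genes were higher and 2 lower, the latter including the glutathione-degrading Chac2 (-1.49), while its relative Chac1 was higher (2.79). The lists overlap: the other higher genes here, Slc7a11 and Gsr, are also counted among the NRF2 targets.

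Of 10 tested genes of PAPS supply and sulfate handling, 7 were lower and 2 higher in injured PT-KO than in injured Ctrl kidneys, against 24.4% and 22.5% of all genes. Papss2, which makes PAPS, was at 89.4, 90.4 and 102 CPM in injured PT-KO, 220.1, 143 and 283 in injured Ctrl and 545, 462 and 554 in sham PT-KO kidneys (-1.20 ± 0.23 between the injured groups). The sulfate exchanger Slc26a1 was at 11.5, 11.2 and 11.5 against 127, 117 and 122 CPM in injured Ctrl (-3.43 ± 0.098, adjusted p = 7.33e-06). The sulfate carrier Slc13a1 was at 239, 222 and 132 against 1349.7, 1424 and 603 CPM (-2.52 ± 0.36). It was at 347, 412 and 439 CPM in sham PT-KO and 356, 265 and 319 in sham Ctrl kidneys. Injured Ctrl kidneys thus lay above and injured PT-KO kidneys below both sham groups, and Slc13a1 was called higher in injured than in sham Ctrl kidneys. In the list for UDP-glucuronic acid 2 of 6 genes were higher and 1 lower. Ugdh, which makes UDP-glucuronic acid, was at 288, 388 and 423 CPM in injured PT-KO, 145, 182 and 112 in injured Ctrl and 112, 135 and 121 in sham PT-KO kidneys (1.32 ± 0.21 between the injured groups).

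In the mercapturic acid route, which trims glutathione conjugates for excretion, 4 of 9 genes were lower and 1 higher in injured PT-KO than in injured Ctrl kidneys, against 24.4% and 22.5% of all genes. The brush border peptidase Anpep was at 32.003, 31.2 and 30.6 against 122, 76.1 and 169 CPM (-1.98 ± 0.26), and Nat8f1 and Acy1 differed by -1.997 and -1.12. The call of Nat8f1 was lost without injured PT-KO library 3 (range -2.43 to -1.57), and that of Acy1 without any 1 library except injured Ctrl library 2 (range -1.42 to -0.66). Of 9 other conjugating enzymes tested, 5 were lower, among them Keg1, a glycine N-acyltransferase-like gene, at 56.5, 41.8 and 32.3 against 1439, 1836 and 2248 CPM (-5.41 ± 0.28), Hnmt (-1.38), Tpmt (-1.08) and Baat (-2.24, lost without injured PT-KO library 4). The arylamine acetyltransferase Nat2 was among the 2 that were higher (1.11).

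Of 7 export pumps, 3 were higher and none lower, with Abcb1a at 1.31. Among the regulators, Nfe2l2, Rxra and Ppara were higher, and Ahr and Esr1 were among those that were lower. Ppara, a lipid-sensing nuclear receptor, differed by 1.17 ± 0.25 and the estrogen receptor gene Esr1 by -1.91 ± 0.28 on the log2 scale. Ppara was at 104, 91.4 and 127 CPM in injured PT-KO and 43.6, 33.4 and 66.3 in injured Ctrl kidneys. Sham PT-KO kidneys, at 93.5, 102 and 111 CPM, overlapped with injured PT-KO ones. In Ctrl mice Ppara was called lower with injury, from 96.2, 81.3 and 79.2 CPM in sham kidneys.

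**Figure D3:**
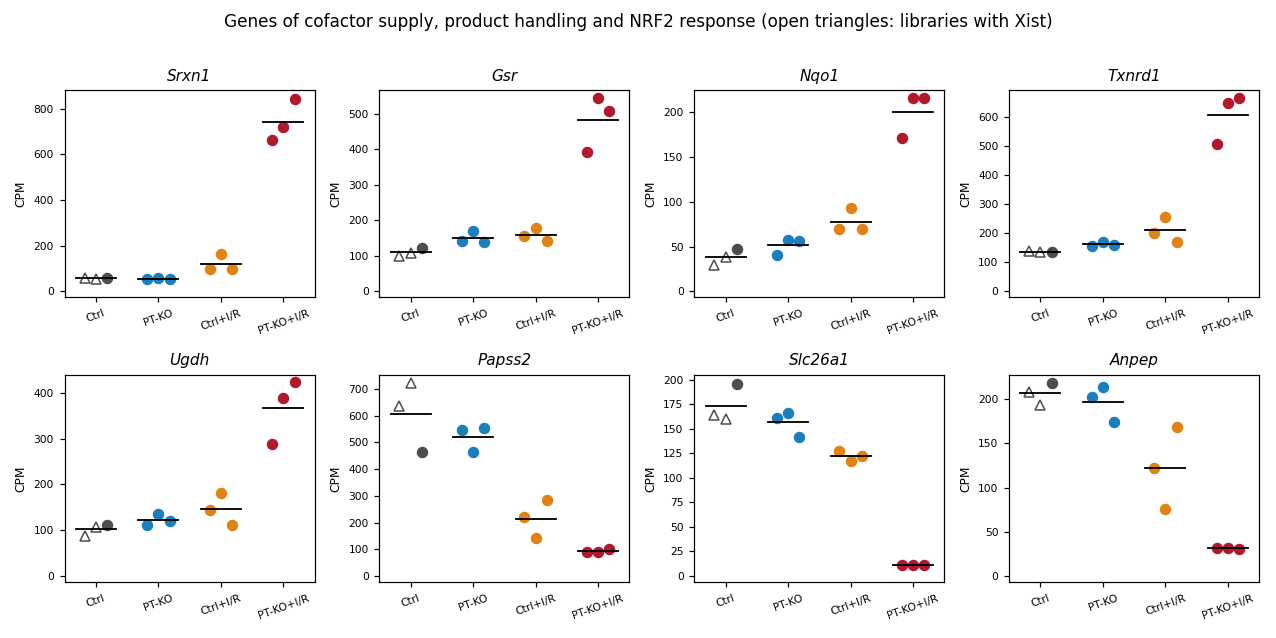
CPM of 8 genes of the NRF2 response, cofactor supply and conjugate handling in each library on linear axes, with 1 point per kidney and a bar at the mean of each group of 3; open triangles are the sham Ctrl libraries that contain Xist. Srxn1, Gsr, Nqo1, Txnrd1 and Ugdh are highest in the 3 injured PT-KO kidneys, and Papss2, Slc26a1 and Anpep lowest.

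The injury response in Ctrl mice depended on which sham libraries were used. With all 3, 11 of 42 members tested passed, 5 higher and 6 lower, where 19.4% of all genes were called, 11.4% higher and 7.97% lower. Scaling to total counts gave 12 members, with 2346 genes called higher and 766 lower instead of 1778 and 1241. Without the Xist libraries, in a fit that leaves 1 sham Ctrl kidney and assumes that it varies like the other groups, 6 of 43 passed, where 6.92% of all genes were called. Mgst1 rose in both fits (1.49 ± 0.21 and 1.92 ± 0.27), and Gstt2 fell in both (-0.72 ± 0.16 and -0.76 ± 0.20). Gstp3 passed in both, with a ratio of injured to sham Ctrl of 102 (95% exact counting interval 27.96 to 849). Of the calls lost without the Xist libraries, that of Gsta4 went with the largest shift, from -1.99 ± 0.51 to -0.38 ± 0.25 on the log2 scale. Gsto2 went from -2.16 ± 0.39 to -1.68 ± 0.79. The others moved less in value, from -0.99 ± 0.25 to -1.01 ± 0.31 for Gstk1, -1.16 ± 0.27 to -1.14 ± 0.37 for Gstm7, 0.79 ± 0.15 to 0.69 ± 0.22 for Gstm5, 0.56 ± 0.15 to 0.46 ± 0.28 for Gstm1 and 3.41 ± 0.65 to 3.80 ± 1.22 for Gsta1. Sult1d1 (-0.99 ± 0.17, adjusted p = 0.0155) and Ugt3a2 (-1.23 ± 0.27, adjusted p = 0.032) passed without them and not in the 6-library fit. With all 12 libraries and sex as a covariate, 10 of 43 passed, where 12.5% of all genes were called. Since both Xist libraries are sham Ctrl, the sham level in that fit rests on sham Ctrl library 3 as well, and it is no separate check of the fit without them. The 10 were Mgst1, Gstp3 and Ugt1a2, which were higher, and Gstz1, Sult1d1, Gstk1, Gstt2, Ugt3a2, Ugt2b38 and Ugt3a1, which were lower (-0.97 ± 0.18 for Sult1d1 and -1.21 ± 0.26 for Ugt3a2). Ugt1a2 turned from -5.63 ± 1.63 (adjusted p = 0.0493) to 2.41 ± 0.54 (adjusted p = 0.0329) without the Xist libraries. Without sham Ctrl library 1 or 2, 2 members were called, beside 2.39% and 2.56% of all genes. Without injured Ctrl library 1 there were 6, beside 5.28% of all genes. Without injured Ctrl library 2, Gsta4, Gstm1 and Ugt1a2 lost their calls and Gsta1 was at a log2 fold change of 2.70 ± 0.52. Leaving out any 1 library gave 2 to 15 members and 2.39% to 25% of all genes.

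Several members set the Xist libraries apart. Of 43 members tested over all 12 libraries, 9 were higher in both Xist libraries than in each of the other 10 and 4 were lower, where 15.4% of all genes were separated in this way (8.71% above and 6.67% below). The higher ones were Gsta2, Gsta4, Gsto2, Mgst3, Sult5a1, Ugt1a1, Ugt1a2, Ugt1a6a and Ugt2b34, and the lower ones Gstp1, Ugt1a7c, Ugt2b37 and Ugt2b38. Ugt1a2 was at 566 and 645 CPM in the Xist libraries and 0.513 to 12.6 in the other 10, with a ratio of 405 to sham Ctrl library 3. Ugt2b37 was at 1.86 and 2.08 CPM against 86.8 to 304, and sham Ctrl library 3 was 107 times higher. For Ugt2b38 the values were 114 and 90.9 CPM against 283 to 1666, with sham Ctrl library 3 at 1126. Gsta4 was at 98.6 and 128 CPM against 27.2 in sham Ctrl library 3, and Gsta2 at 401 and 513 against 189. Both Xist libraries were sham Ctrl, so these values describe 2 libraries and carry no test.

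**Figure D4:**
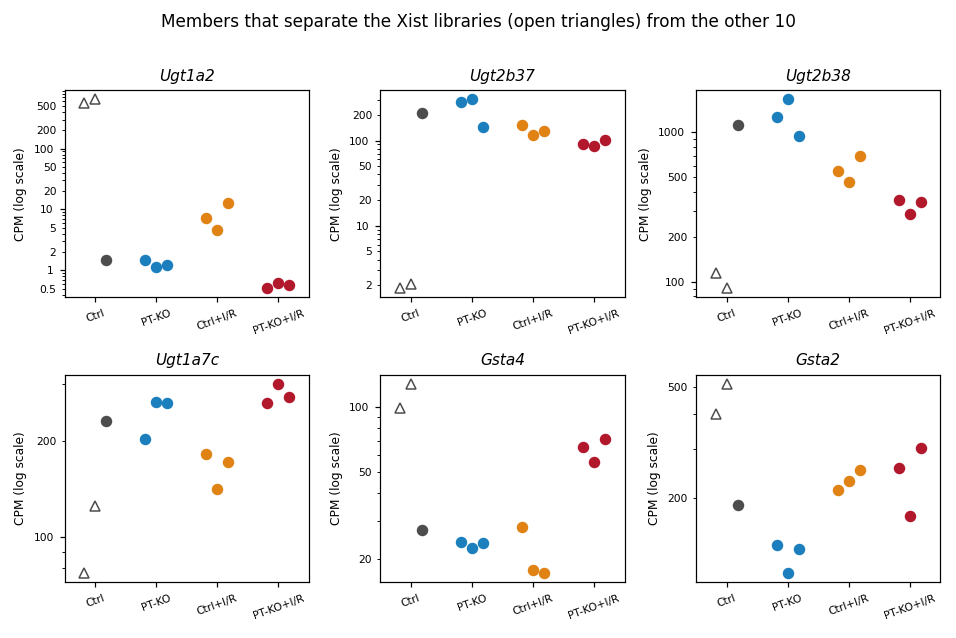
CPM of 6 members in each library on log axes, with 1 point per kidney; open triangles are the 2 sham Ctrl libraries that contain Xist. Ugt1a2, Gsta4 and Gsta2 are higher in these than in each of the other 10 libraries, and Ugt2b37, Ugt2b38 and Ugt1a7c lower.

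Between the sham groups no member of 39 tested was called by edgeR in the main fit, and 0% of all genes were. Without a low-count filter edgeR called 10 members and 1.47% of genes with a count. With the replicate number as a block it called 18 members and 9.01% of all genes. At an unadjusted p under 0.05, 15 of the 39 members and 16.8% of all genes passed. DESeq2 called 7 members and 1.66% of the 26428 genes with a count. Without the Xist libraries, only sham Ctrl library 3 stood for Ctrl. That library alone gives no spread within its group, so the fit could not decide whether members differed between the sham groups. Mgst3 had the lowest unadjusted p of the members (0.000992), at 65.7 to 72.3 CPM in sham PT-KO and 86.9 to 101 in sham Ctrl kidneys. Without sham Ctrl library 3, so that only Xist libraries stood for Ctrl, 16 members were called, beside 12.4% of all genes.

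The interaction test compared the log2 change with I/R between the genotypes. It called 16 of 43 members, 10 with a higher and 6 with a lower value in PT-KO, where 30.6% of all genes were called, 14.3% higher and 16.4% lower. Without the Xist libraries 9 members passed, where 14.4% of all genes did, and with sex as a covariate 10, where 20% did. Mgst1, Gstm5, Gsto1, Gsta4, Gstm4, Sult1d1, Ugt1a6a and Ugt2b5 passed in these 3 fits, of which the last 2 both take the sham Ctrl level from library 3 alone. Ugt1a2 passed in the last 2 of them and not in the first, and Sult1c2 in the first and with sex as a covariate. The difference between the responses was 1.21 ± 0.26 with and 1.62 ± 0.21 without those libraries for Sult1d1, and -5.02 ± 0.80 and -3.92 ± 0.50 for Ugt2b5.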

How the data were processed

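RNA-seq of mouse kidney cortex gave 12 libraries. The authors deposited raw counts per Ensembl gene, and the submitters' processing notes name HISAT2 2.0.4 and mm10. The counting program and its strand setting are not given in the sources used here, so paralogs and overlapping genes may share reads. Symbols came from GENCODE M21, and 7 pseudogenes with member symbols were left out. Groups followed the sample titles; the Ctrl library called 3 here is tied by its column to its group only. Low counts were filtered (filterByExpr), TMM factors applied, and each comparison fitted to its 6 libraries, or 12 for the interaction, with edgeR 4.0.16 (R 4.3.3, glmQLFit and glmQLFTest), taking Benjamini-Hochberg adjusted p under 0.05 as the call. The labels do not say that the libraries of a group came from separate animals, so p-values measure only the spread between these samples.

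Members and gene lists were chosen with earlier results of these data known. Genes named were the 3 most abundant of each class, the 8 largest rises and falls in the comparisons of injured PT-KO kidneys, members near 0 in a group, members with an interaction, Gfer, and related genes that differed by over 1 on the log2 scale between the injured groups. Gm3776, cell type markers, Sult1b1, Ugt1a1, Me1, Nfe2l2, Rxra and Ahr fall outside this rule and were named after their values were seen. A related gene that met the rule is not reported here. Alternatives were total counts, RLE factors, no filter, DESeq2 1.42.0, the rule that the paper gives for the injured groups (unadjusted p under 0.01 and absolute log2 fold change over 1), here applied to every comparison, 1 fit to 12 libraries, sex as a covariate, no Xist libraries, a replicate block and leaving out each library. The script was tested on simulated data.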

Additional observations from a re-analysis of the deposited data

Results flagged for a closer look

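For 16 members the response to I/R differed between the genotype labels by the interaction test of edgeR. The log2 change was more positive in PT-KO than in Ctrl mice by 0.98 for Gstm5, 1.65 for Mgst1, 1.26 for Gsto1, 12.01 for Sult1e1, 1.21 for Sult1d1, 1.43 for Sult1a1, 3.46 for Gsta4, 3.08 for Ugt1a6a, 1.62 for Gsta2 and 4.80 for Gsta1. It was more negative by -0.83 for Gstt1, -2.03 for Sult1c2, -1.24 for Gstm4, -2.16 for Ugt2a3, -5.02 for Ugt2b5 and -1.52 for Ugt3a1. Adjusted p-values of the 16 ran from 0.000947 (Ugt2b5) to 0.0314 (Ugt3a1). The fitted values of Sult1e1 and Gsta1 depend on the prior count. Sult1e1 had 0 to 3 counts in each library outside injured PT-KO, so its interaction only restates its level in those injured kidneys.

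Without the sham Ctrl libraries that contain Xist, the direction was the same for all 16. There Gstm5, Mgst1, Gsto1, Gstm4, Sult1d1, Gsta4, Ugt1a6a and Ugt2b5 passed, with 1.06, 1.19, 0.81, -1.03, 1.62, 1.82, 1.70 and -3.92 in that order. The other members, Gstt1, Sult1c2, Sult1e1, Sult1a1, Ugt2a3, Gsta2, Ugt3a1 and Gsta1, did not, with -0.86, -1.86, 12.51, 1.57, -2.02, 0.65, -1.12 and 4.39 and adjusted p from 0.0628 to 0.23. With sex as a covariate, a fit whose sham Ctrl level rests on the same single library, Sult1c2 passed as well. With 1 of the 12 libraries left out, Ugt3a1 lost its call in 9 fits, Sult1a1 lost its call in 8 fits, Gstt1 lost its call in 5 fits and Sult1e1 lost its call in 2 fits. Sult1e1 lost it without sham Ctrl library 2 or 3. Apart from leaving out each library in turn, no test for outlying samples was run in the groups of 3 kidneys.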

How the results depend on the processing

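Counts of members are given here with the share of all genes called in the same fit. In injured against sham Ctrl kidneys 11 members (19.4% of all genes) became 7 (9.15%) with a rule of size and p (unadjusted p under 0.01 and absolute log2 fold change over 1), 18 (12.7% of genes with a count) without a low-count filter, 21 (14.6% of genes with a count) by DESeq2, 22 (30.5%) in 1 fit to all 12 libraries and 6 (6.92%) without the Xist libraries. Between the sham groups 0 members (0%) became 6 (1.42%), 10 (1.47%) and 7 (1.66%) under the first 3 of these. Between the injured groups 23 (46.9%) fell to 13 (18.3%) with that rule, as did related genes from 45 to 25. The interaction count of 16 (30.6%) became 10 (20%) with sex as a covariate and 9 (14.4%) without the Xist libraries. Leaving out 1 library gave 2 to 15 members beside 2.39% to 25% of all genes (injured against sham Ctrl), 29 to 32 beside 58.7% to 65.6% (injured against sham PT-KO), 0 to 16 beside 0% to 12.4% (sham), 16 to 26 beside 31% to 48% (injured) and 13 to 19 beside 21.7% to 33.2% (interaction). Related genes numbered 35 to 50 between the injured groups and 51 to 59 with injury in PT-KO mice in these fits. Ugt1a2 reversed in injured against sham Ctrl kidneys, from -5.63 to 2.42 with sex as a covariate and 2.41 without the Xist libraries. Gfer between the sham groups, at 0.13, became -0.035 and -0.045, and -0.034 without sham PT-KO library 2 (range -0.034 to 0.33). Apart from the dropped libraries, the cause of these shifts was not tested. Of 1072 repeats of single named genes under other settings, 974 kept direction and call, 93 lost the call and 4 reversed.

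Same-numbered libraries did not deviate together (12 pairs, median correlation -0.022, 1 pair over 0.1), so the numbers were not taken as pairs. With the replicate number as a block, 22 members (23.2% of all genes) were called in injured against sham Ctrl, 18 (9.01%) between the sham and 8 (11%) between the injured groups, with 19 related genes in the last, and 29 (55.7%) in injured against sham PT-KO kidneys. The 10 members that never exceeded 9 counts in a library did not pass the low-count filter in any of the main comparisons. The fits without that filter and by DESeq2 included them where they had a count, and their single values are not given here.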
